A study of Mus musculus with 2 samples.

Results

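The platelet-derived growth factor (PDGF) family was followed in primary osteoblasts of wild-type and Slc39a13-KO mice. The family was taken as its 4 ligand genes, Pdgfa, Pdgfb, Pdgfc and Pdgfd, and its 2 receptor genes, Pdgfra and Pdgfrb. All probe sets annotated to exactly 1 of these symbols were used, which gave 14 of the 34945 probe sets with 1 symbol and 6 of 18193 genes. Slc39a13 (ZIP13) carries zinc across membranes, and in the Slc39a13-KO mice several of its exons were replaced by a Neo-cassette. The cells came from calvaria of newborn mice, released by collagenase and dispase, with the later fractions kept in medium with fetal calf serum. There was 1 array of wild-type cells and 1 of Slc39a13-KO cells, hybridised with biotinylated RNA on an Affymetrix mouse array, so differences have no replicate check and no p-value was computed. How many pups each culture came from, and their sex, were not given in the sources used here.

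PDGFs are dimeric growth factors for mesenchymal cells. PDGF-A and PDGF-C act through the receptor PDGFRα, PDGF-D acts through PDGFRβ, and PDGF-B binds both. The receptors are tyrosine kinases of class III that recruit phosphoinositide 3-kinase, phospholipase Cγ and the Ras pathway, and drive proliferation and migration. In the skeleton PDGFRα marks mesenchymal progenitors, whereas PDGFRβ is best known from pericytes, the mural cells of small vessels, and is also found on osteoblast precursors.

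Values are MAS5 signals, in linear units of brightness scaled alike in both arrays. A probe set, a group of short oligonucleotides for 1 transcript, was counted as measured if its signal exceeded a floor of 85.1, the median of all pooled signals, on either array. Log2 ratios are of Slc39a13-KO over wild-type, and a gene takes the mean of its measured probe sets. Pairs of signals are given with wild-type first. For genes outside the family a signal is the geometric mean over the measured probe sets after raising to the floor. A gene was called higher or lower at a 2-fold difference with all its measured probe sets on the same side of 0. Of the 14 probe sets 12 were measured, and each of the 6 genes had at least 1. Slc39a13 itself, read by 1 probe set, gave signals of 1309 and 90.4. Whether that probe set lies in the removed exons was not established. Across the 5700 genes with 2 or more measured probe sets the SD of the log2 ratio between probe sets had a median of 0.34. This is technical spread on the same arrays and not biological error.

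The PDGF genes differed in opposite directions. Pdgfd was the 1 gene of 6 called lower in the Slc39a13-KO array, and 0 of 6 were called higher, against 5.93% of 12269 measured genes called lower and 8.01% called higher. Pdgfra lay above wild-type in all of its probe sets and Pdgfrb and Pdgfc below it in all of theirs, each by a mean of less than 2-fold. Pdgfa differed by less than the spread between its probe sets. Pdgfb had 1 measured probe set, close to the floor in both arrays, and so no such spread. With a threshold of 1.5-fold, Pdgfra was called higher and Pdgfc, Pdgfd and Pdgfrb lower, where 19.4% of measured genes were called higher and 12.1% lower. The median log2 ratio was -0.43 over the 6 genes and 0.11 over all measured genes.

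**Figure D1:**
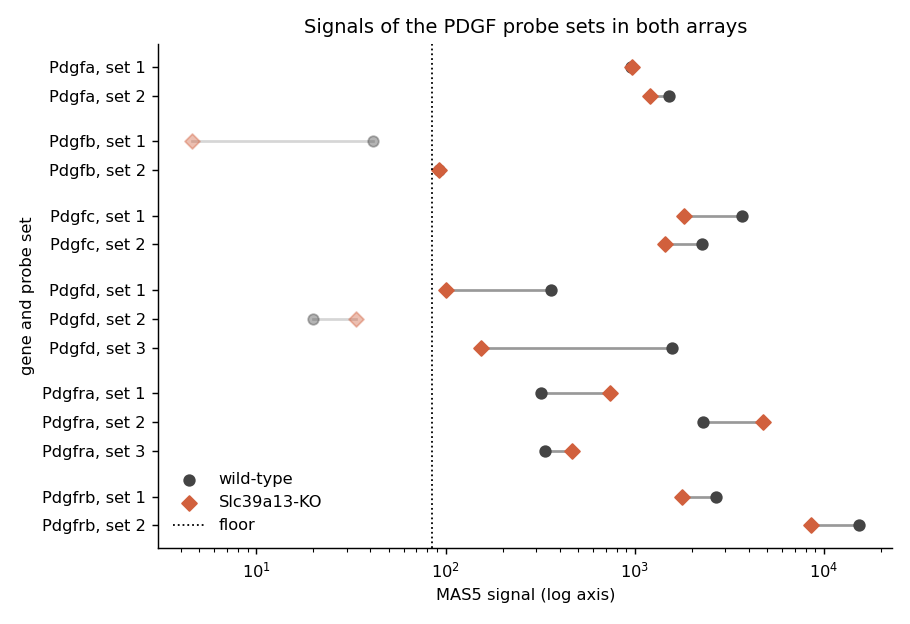
MAS5 signals (horizontal, log axis) of the 14 PDGF probe sets (vertical, numbered within each gene) in the wild-type array (grey circles) and the Slc39a13-KO array (orange diamonds), with faint symbols for the 2 probe sets below the floor of 85.1 (dotted line) in both arrays. The 3 Pdgfra sets lie to the right of wild-type in Slc39a13-KO, the Pdgfc and Pdgfrb sets and both measured Pdgfd sets to the left, and the circle of the second Pdgfb set is hidden behind its diamond.

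Pdgfd encodes PDGF-D, a ligand of PDGFRβ that is secreted in a latent form. Its brightest probe set read 1569 and 154.0, a 10.2-fold difference. A second read 360.4 and 100.1, a 3.60-fold difference. The other was below the floor in both arrays, with 19.8 and 33.6. Both measured probe sets were thus lower in Slc39a13-KO, with a mean log2 ratio of -2.60 and an SD of 1.06 between its 2 measured probe sets, or 6.06-fold. That SD is above the 90th percentile of 0.75 over all genes, so the direction was shared and the size was not. Of 12269 measured genes 88 (0.717%) had a log2 ratio as low or lower. Both Slc39a13-KO signals were close to the floor, and with no floor, where the dim probe set enters with the opposite sign, the log2 ratio was -1.48 and the gene was not called.

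The sequence around the start of the gene called lower, Pdgfd, and of the gene with the highest ratio, Pdgfra, is shown for reference, from 250 bases before to 50 after a RefSeq transcript start in GRCm38.p6. The arrays measured RNA and hold no data on binding at these windows. Capitals mark matches to TATAAA on either strand. The GC box GGGCGG, the CCAAT box, the AP-1 site TGACTCA and the E-box CACGTG were also searched on both strands and had 0 matches in these windows.
Pdgfd, chr9:6168236-6168535, plus strand: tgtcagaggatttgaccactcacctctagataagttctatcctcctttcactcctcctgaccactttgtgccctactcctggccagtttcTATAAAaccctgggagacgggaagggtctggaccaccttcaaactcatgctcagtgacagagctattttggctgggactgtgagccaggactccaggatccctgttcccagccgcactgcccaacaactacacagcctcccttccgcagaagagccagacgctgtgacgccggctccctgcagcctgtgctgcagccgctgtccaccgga
Pdgfra, chr5:75152001-75152300, plus strand: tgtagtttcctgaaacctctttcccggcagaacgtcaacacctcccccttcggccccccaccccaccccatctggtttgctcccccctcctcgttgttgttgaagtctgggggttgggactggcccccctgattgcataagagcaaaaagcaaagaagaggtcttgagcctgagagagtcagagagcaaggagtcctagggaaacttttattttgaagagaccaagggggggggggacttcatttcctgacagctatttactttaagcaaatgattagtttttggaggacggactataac

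The Pdgfd window held 1 TATAAA match, 160 bases before the start used for the window and 37 bases before the outermost start of the gene record. Such a match was present in 13.6% of 32851 RefSeq windows of this length, a GC box in 35.7%, a CCAAT box in 37.4%, the AP-1 letters in 5.20% and those of the E-box in 7.15%. G and C made up 56.7% of the Pdgfd window and 51.0% of the Pdgfra window, against a median of 52.7%.

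Pdgfc encodes PDGF-C, the other ligand secreted in a latent form, which acts on PDGFRα. It read 3666 and 1826 with its brightest probe set and 2252 and 1437 with the other. Both were lower in Slc39a13-KO, with a mean log2 ratio of -0.83 and an SD of 0.25 between its 2 measured probe sets, or 1.77-fold. The gene was not called, although its brightest probe set alone reached 2.01-fold. Of all measured genes 7.95% lay as low or lower. Both probe sets were designed on the same source sequence, so they are not independent readings. Both also carry suffixes for shared transcripts.

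Pdgfa encodes PDGF-A, a ligand of PDGFRα. Its 2 probe sets read 955.2 and 965.4, and 1507 and 1207. They lay on either side of 0, with a mean log2 ratio of -0.15 and an SD of 0.24 between its 2 measured probe sets. Pdgfa differed less between the arrays than Pdgfd did, by 2.45 on the log2 scale, and the ranges of their probe sets did not overlap. Against Pdgfc the distance was 0.67, again with no overlap. The 2 probe sets of Pdgfa share 1 source sequence, as do those of Pdgfc, so these ranges do not come from independent readings.

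Pdgfb encodes PDGF-B, the ligand with which endothelial cells recruit pericytes and which platelets carry. It was at the edge of detection in both arrays. One probe set read 92.3 and 92.7 and the other 41.1 and 4.56, both of the latter below the floor. No difference could be measured at this level. Markers of cell types that make it were read in the same arrays. For the counts that follow, the shares over all measured genes were 8.01% called higher and 5.93% called lower. Of 14 endothelial markers 4 were measured, with summed signals of 396 and 749. In wild-type each of the 4 was at or close to the floor of 85.1. Most of the difference between the sums came from Erg (105.1 and 397.8). Pecam1, Vwf, Tie1 and Cldn5 were below the floor in both arrays, and Erg, an endothelial and chondrocyte transcription factor, was the 1 called higher (at least 3.78-fold). Of 6 measured megakaryocyte and platelet markers 1 was higher, Pf4 (2.34-fold), and 1 lower, Ppbp (at least 3.60-fold), with sums of 1230 and 1064. Macrophages also make PDGF-B. Of 11 measured macrophage markers 6 were higher and 1 lower, with sums of 1680 and 4189. Lyz2, a lysozyme, was 8.41-fold higher, C1qb, of complement, at least 3.70-fold higher, and the tetraspanin Cd53 3.50-fold lower. The part of these cells in the Pdgfb signal was not tested.

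Pdgfra, the receptor for PDGF-A, PDGF-B and PDGF-C, was the family member with the highest ratio. Its brightest probe set read 2297 and 4731, and the others 318.8 and 735.2, and 336.0 and 466.2. All 3 were higher in Slc39a13-KO, by 2.06-fold, 2.31-fold and 1.39-fold. The mean log2 ratio was 0.91 with an SD of 0.39 between them, or 1.87-fold, below the threshold, and 9.73% of measured genes lay as high or higher. The call depends on the probe set taken, since the brightest alone gave 1.04. The 2 probe sets that differed most share 1 source sequence.

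Pdgfrb, the receptor for PDGF-B and PDGF-D, read 15310 and 8511 with its brightest probe set and 2670 and 1785 with the other. Both were lower in Slc39a13-KO, with a mean log2 ratio of -0.71 and an SD of 0.19 between its 2 measured probe sets, or 1.64-fold. These 2 probe sets share 1 source sequence, so they are not independent readings. It was not called, and 9.78% of measured genes lay as low or lower. The ligand Pdgfd and its receptor lay on the same side of 0, and of the pair the ligand passed 2-fold. With poly-A scaling the pair lay on opposite sides, at -1.58 for Pdgfd and 0.31 for Pdgfrb.

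The log2 ratios of the receptors differed by 1.62, a 3.08-fold shift of Pdgfra against Pdgfrb. The lowest Pdgfra probe set lay 1.05 above the highest Pdgfrb probe set. Because a scaling factor common to all genes cancels in this difference, it was 1.62 as deposited, with median scaling and with poly-A scaling, and 1.49 with quantile scaling. It was 1.89 with the brightest probe set of each gene and 1.49 without the shared-transcript suffixes. These ratios say how each gene differed between the arrays and not which receptor was more abundant, since signals of different probe sets have no common scale.

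**Figure D2:**
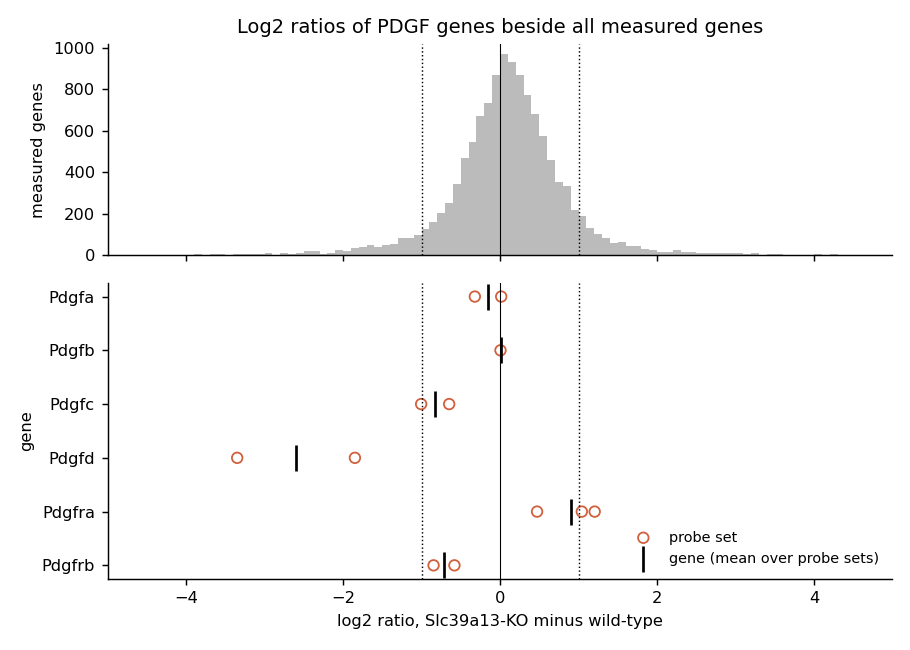
Upper panel, number of measured genes (vertical) by log2 ratio of Slc39a13-KO over wild-type (horizontal, bins of 0.1), without the 17 genes beyond 5 on either side. Lower panel, the PDGF genes on the same axis, with circles for measured probe sets, black ticks for gene means and dotted lines at 2-fold; Pdgfd at -2.60 lies in the sparse left tail, and the Pdgfra and Pdgfrb circles do not overlap.

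Markers of cell types that carry these receptors differed between the arrays. Beside the counts below, 5.93% of all measured genes were called lower and 8.01% higher. Of 12 measured pericyte and smooth muscle markers 8 were lower in Slc39a13-KO and 1 higher, with summed signals of 46924 and 17532 and a median log2 ratio of -1.46. Most of both sums came from Tagln (24408 and 12020) and Actg2 (12720 and 305.3). The enteric actin Actg2 was 41.7-fold, the adhesion molecule Mcam at least 10.5-fold and the tropomodulin-like Lmod1 3.86-fold lower. Of the defining pericyte genes, Rgs5 was 3.04-fold and Notch3 2.50-fold lower, Cspg4 and Des were not called (878.9 and 891.0, and 96.7 and 101.8), and Kcnj8 and Abcc9 were below the floor in both arrays. The 1 marker called higher was Anpep, the aminopeptidase CD13 (at least 3.06-fold). Of 11 measured fibroblast markers, genes of cells in which PDGFRα is widely used as a marker, 5 were lower and 2 higher, with sums of 116190 and 77514. Mfap5, of elastic microfibrils, was 11.5-fold and Col3a1 5.16-fold lower, and Dpt (dermatopontin) 4.43-fold higher. All 16 measured chondrocyte markers were higher in Slc39a13-KO, with sums of 4192 and 132535. Most of the Slc39a13-KO sum came from Cnmd (52990) and Col2a1 (47019). Cnmd was at least 623-fold, Col9a1 at least 106-fold and Acan at least 52.4-fold higher. The part of these cell types in the Pdgfra, Pdgfrb and Pdgfd values was not tested, and in bulk RNA fewer cells of a type and less RNA per cell cannot be told apart.

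The label of osteoblasts was checked in the same way, with counts again read beside 5.93% of all measured genes called lower and 8.01% higher. Of 16 markers 12 had a probe set with 1 symbol, and Runx2, Bglap, Bglap2 and Spp1 were not analysed here. Of the 12, 9 were measured, among them the type I collagen genes Col1a1 (12230 and 7655) and Col1a2 (28503 and 25943). Sp7, the osteoblast transcription factor osterix, was just above the floor (94.8 and 153.5), Alpl, alkaline phosphatase, read 197.4 in the Slc39a13-KO array and was under the floor in the other, and Ibsp, Phex and Mepe were below it in both arrays. Of the 9, 3 were called higher, Pth1r (5.20-fold), Dmp1 (at least 4.50-fold) and Alpl (at least 2.32-fold). The 1 called lower was Msx2 (at least 4.39-fold). Of 7 measured neural and glial markers 1 was higher, S100b (12.8-fold), which cartilage also expresses, and 3 lower, among them Tubb3 (at least 6.55-fold) and Stmn2 (3.57-fold), with sums of 2196 and 2897.

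Proteins that process or bind PDGFs differed in both directions, with 2 of 10 measured genes higher, 2 lower and a median log2 ratio of -0.11. Shares over all measured genes were 8.01% higher and 5.93% lower. Pdgfrl, a secreted protein that resembles the ligand-binding part of the receptors, read 1016 and 7542, a 7.42-fold difference on 1 probe set. Among the proprotein convertases, which cleave the precursors of PDGF-A and PDGF-B, Pcsk6 was higher (820.1 and 4296, 5.24-fold) and Pcsk5 lower (966.0 and 92.3, at least 10.5-fold). Of the 5 Pcsk5 probe sets 2 were measured. In the whole list 1 gene was called lower with the 30th percentile floor, and 1 without the shared-transcript suffixes. Furin read 764.2 and 729.5 and was not called. Plat, the tissue plasminogen activator that releases active PDGF-C, was 2.41-fold lower (1485 and 615.0). Plau, the urokinase that releases active PDGF-D, was below the floor in both arrays, and St14, matriptase, another protease that cleaves PDGF-D, read 103.7 in wild-type and was at the floor in Slc39a13-KO.

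**Figure D3:**
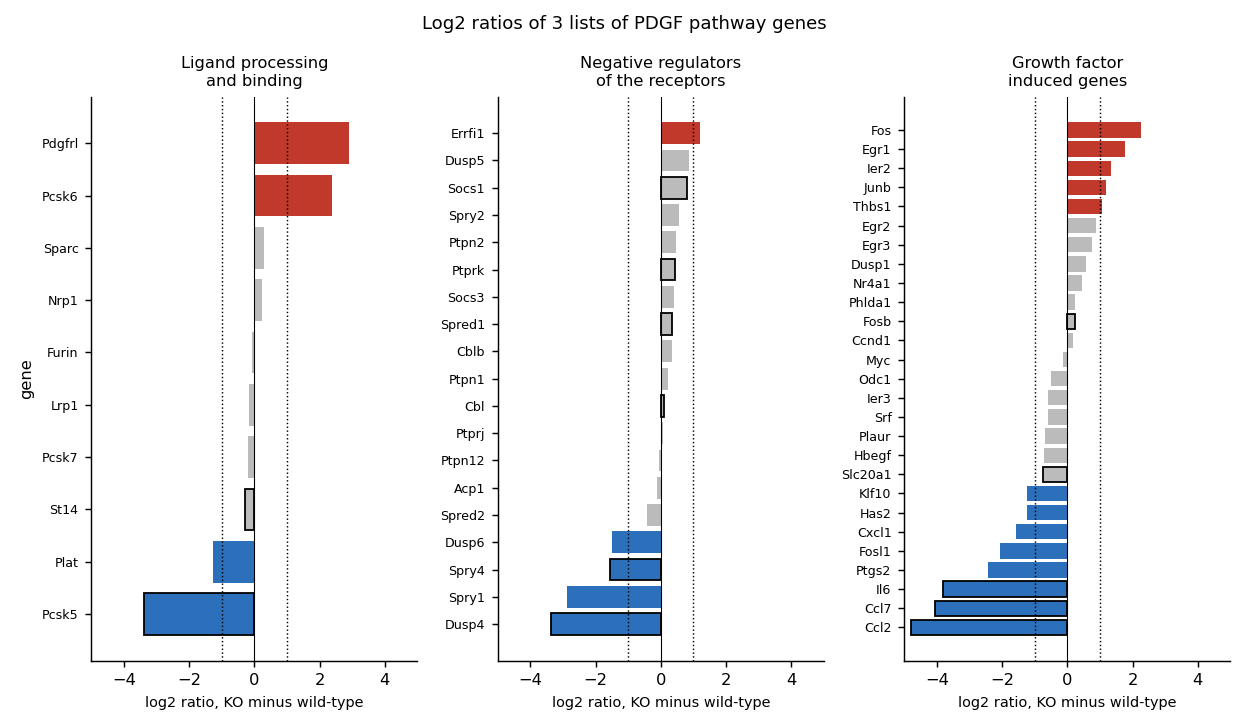
Difference between the arrays as a log2 ratio, Slc39a13-KO against wild-type (horizontal), for the measured genes of 3 lists (vertical), red where called higher, blue where called lower and grey where not called, with dotted lines at 2-fold and a black outline where at least 1 signal lay at the floor. The blue bars of the middle panel are Dusp6, Spry4, Spry1 and Dusp4, and in the right panel Fos and Egr1 stand at the top and Ccl7 and Ccl2 at the bottom.

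Of 31 measured adaptors and effectors of the activated receptors 4 were higher, 1 was lower and 26 were not called, with a median log2 ratio of 0.17 beside 0.11 for all genes. Beside the 8.01% of all measured genes called higher and 5.93% called lower, these counts are not a result about the list. Pik3r1, the regulatory subunit p85α of phosphoinositide 3-kinase, was at least 3.60-fold higher (265.5 and 955.0), with all 4 probe sets on the same side. Pik3r3, another regulatory subunit of the same kinase, was 3.06-fold lower (1464 and 478.6), and its catalytic subunit Pik3cb at least 2.02-fold higher. Stat5a was at least 3.43-fold higher and the adaptor Grb10 2.68-fold higher. Grb2, Src and Plcg1 had log2 ratios of -0.13, 0.02 and 0.39.

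Negative regulators of the receptors had 4 of 19 measured genes lower and 1 higher, beside 5.93% and 8.01% of all measured genes. The 4 were all feedback inhibitors of the Ras and ERK pathway that this signaling itself induces. Dusp4, a phosphatase of ERK, read 884.8 in wild-type, and its Slc39a13-KO signal was under the floor (at least 10.4-fold lower). Spry1, a Sprouty inhibitor, was 7.32-fold lower (1408 and 192.4), Spry4 at least 2.97-fold and Dusp6 2.81-fold lower (970.4 and 345.2). The family members were not uniform, since Spry2 and Dusp5 had log2 ratios of 0.55 and 0.87. Errfi1, an inhibitor of the related EGF receptor, was 2.30-fold higher, a call lost with the 70th percentile floor, with median scaling, with the brightest probe set and without the shared-transcript suffixes. The ubiquitin ligases Cbl and Cblb and the phosphatases Ptpn1, Ptpn2 and Ptprj, which act on the receptors directly, were not called. Their log2 ratios ran from 0.07 to 0.45. Ptpn12, Acp1 and Ptprk, further phosphatases of the list, were not called either, at -0.06, -0.12 and 0.42. The list median was 0.23, on the other side of 0 from most of its called genes, and -0.02 with median scaling.

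Genes that PDGF and other growth factors induce in fibroblasts were called in both directions, with 5 of 27 higher and 8 lower. Over all measured genes the shares were 8.01% and 5.93%. The median log2 ratio of the list was -0.50, and 0.19 with only probe sets free of the shared-transcript suffixes. Among the higher ones Fos, part of the AP-1 transcription factor, was 4.78-fold (1494 and 7139), Egr1 3.38-fold (3488 and 11775), Ier2 2.52-fold and Junb 2.28-fold higher, and so was the secreted Thbs1 (2.09-fold). Among the lower ones the chemokine Ccl2 was at least 27.7-fold lower, Ccl7 at least 16.6-fold and Il6 at least 14.0-fold lower, and Ptgs2, which makes prostaglandins, 5.44-fold lower (1268 and 233.0). The transcription factors Fosl1 and Klf10 were also lower, by 4.21-fold and 2.33-fold. Myc and Ccnd1 were not called, with log2 ratios of -0.13 and 0.19. These genes respond to serum and to many other factors, so they do not measure PDGF signaling alone.

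**Figure D4:**
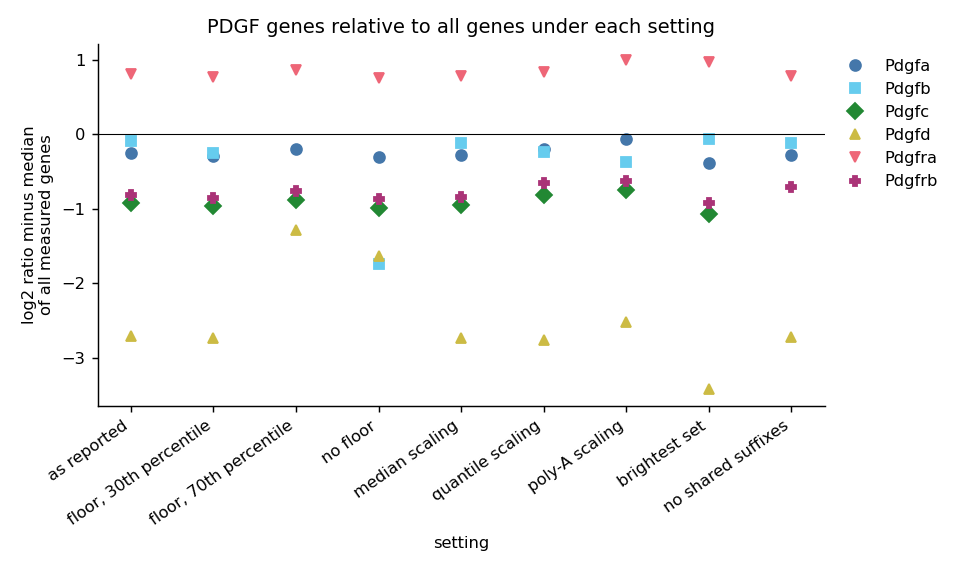
Log2 ratio of each PDGF gene minus the median of all measured genes (vertical) under the reported setting and the 8 alternatives for floor, scaling and probe sets (horizontal). Pdgfra stays above 0 and Pdgfc, Pdgfd and Pdgfrb below 0 wherever they were measured, Pdgfd spans the widest range, from -3.42 to -1.29, and Pdgfb falls to the level of Pdgfd with no floor.

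Values without a common reference depend on the scaling, because each array was brought to the same mean. Poly-A controls, bacterial RNAs added before labelling, were lower in Slc39a13-KO for 24 of 24 probe sets, and scaling on them moved the median of all genes from 0.11 to 0.94. Relative to that median, over the reported, median, quantile and poly-A scalings, Pdgfra ran from 0.78 to 0.99, Pdgfrb from -0.85 to -0.63, Pdgfc from -0.96 to -0.74, Pdgfd from -2.77 to -2.52, Pdgfa from -0.28 to -0.07 and Pdgfb from -0.38 to -0.10. Calls of lists under poly-A scaling include this shift, with 45.8% of all measured genes called higher and 1.75% lower. The count of chondrocyte markers called higher was again 16. Of the pericyte and smooth muscle markers 2 were lower and 2 higher, of the fibroblast markers 2 and 3, of the negative regulators 2 and 11, and of the growth factor induced genes 5 and 11. Of the PDGF processing and binding proteins 0 were then lower and 4 higher.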

How the data were processed

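MAS5 signal intensities of 45101 probe sets, computed by the authors per the submitters' processing notes, were used as deposited; the study's methods name gcRMA for its own analysis. The MAS5 version was not given in the sources used here. After trimming 2% at each end the mean is 500.003 in both arrays. The platform annotation gave 1 symbol to 34945 probe sets, of which 34741 matched RefSeq of GRCm38.p6 by gene ID. Controls were left out. Signals were raised to the pooled 50th percentile (85.1) before log2, and ratios with a signal at this floor are bounds, given as at least N-fold. Calls and thresholds are as described above. The number of arrays, 1 per genotype, limits the precision, and no test was run. Calling was checked on simulated data with known changes. Python 3.11.15, numpy 2.4.6 and pandas 2.3.3 were used.

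All PDGF genes were described with every probe set, and called genes of 14 further lists were named by size, up to 4 in each direction for pathway lists and up to 3 for cell type markers, with defining markers and any further genes given for comparison added after their values were seen. The members and lists were chosen with earlier results of these data known. Alternatives were floors at the 30th and 70th percentile and none, median, quantile and poly-A scaling, the brightest probe set, only probe sets without the suffixes for shared transcripts, and a 1.5-fold threshold.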

Additional observations from a re-analysis of the deposited data

How the results depend on the processing

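Over the alternatives, 47 of 64 values for the PDGF genes kept within the spread between probe sets or, for counts, within 1.5 times. Part of this count was fixed beforehand, since some alternatives cannot act on a gene, as with the floors for Pdgfa, Pdgfc and Pdgfrb. The limit for Pdgfd was wide, at its SD of 1.06. For Pdgfb, with 1 measured probe set, the limit was the median SD of 0.34 over genes with 2 or more. With poly-A scaling, which multiplies all Slc39a13-KO signals by 1 factor before the floor is set, log2 ratios were 0.87 for Pdgfa, 0.56 for Pdgfb, 0.20 for Pdgfc, 0.31 for Pdgfrb and 1.93 for Pdgfra, and 1 gene, Pdgfra, was called higher. Pdgfd was -1.58 there and was still called lower. With median scaling they were -0.40 for Pdgfa and -0.96 for Pdgfrb, and 2 genes were called lower, Pdgfc beside Pdgfd. With no floor Pdgfb was -1.58 and Pdgfd -1.48, and 0 genes were called lower. A floor at the 70th percentile gave -1.24 for Pdgfd and left Pdgfb unmeasured. With the brightest probe set 1 gene was called higher and 2 lower, and at 1.5-fold 1 and 3. Pdgfc has only probe sets with shared-transcript suffixes and gave no value without them. Over all genes, the counts called higher and lower were 983 and 727 as reported, 1596 and 1017 with a 30th percentile floor, 506 and 438 with a 70th, 3077 and 2049 with none, 654 and 1052 with median, 776 and 854 with quantile and 5895 and 225 with poly-A scaling. The medians of the PDGF processing and binding proteins (-0.11) and of the adaptors (0.17) lay on the other side of 0 with the brightest probe set, at 0.05 and -0.02. Of 364 values of the other lists 107 moved further than these limits. Signals near the floor, those of Pdgfb and of Pdgfd in Slc39a13-KO, limit what can be read, and no paired analysis was possible because each genotype has 1 array.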

Other observations

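The wider family of PDGF relatives held genes called in both directions. The VEGFs are growth factors of vessels that share the cystine-knot fold of the PDGFs. With their receptors they had 4 of 8 measured genes lower in the Slc39a13-KO array and 1 higher, with a median log2 ratio of -0.96. Beside this, 5.93% of all measured genes were called lower and 8.01% higher, with a median of 0.11. Vegfd, a growth factor of lymphatic vessels, read 2501 in wild-type and 232.1 in Slc39a13-KO, 10.8-fold lower, with 3 of 3 probe sets on the same side. Vegfc was at least 7.81-fold and Vegfa 2.73-fold lower, and the receptor Flt1 at least 2.54-fold lower. Nrp2, a co-receptor, was 2.36-fold higher, and Vegfb was not called (log2 ratio 0.23). The receptor Kdr was below the floor in both arrays. With poly-A scaling 2 of the 8 were lower and 2 higher, beside 1.75% and 45.8% of all measured genes.

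Of the other class III receptors and their ligands, 4 were measured and 2 were lower, both of them ligands of the receptor Csf1r. Over all measured genes 5.93% were called lower and 8.01% higher. Csf1 (macrophage colony-stimulating factor) was 2.31-fold lower (3535 and 1527), with 4 of 4 probe sets on the same side, and Il34 2.94-fold lower (388.1 and 132.1). Csf1r and Kitl, the ligand of Kit, were not called, with log2 ratios of 0.73 and 0.71. With poly-A scaling 0 of the 4 were lower and 2 higher, beside 1.75% and 45.8% of all measured genes. Csf1 and Il34 gave no value with only probe sets free of the shared-transcript suffixes, so their lower ratios were not read there. Of the genes left in this list 0 were lower and 1 was higher. Their median log2 ratio was 1.06, over fewer genes than the -0.25 of the reported setting.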
